A study of Homo sapiens with 12 samples.

Results

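The 49 genes described here encode the machinery of autophagy and the lysosome. They were chosen by symbol, from knowledge of the pathway, among the 63677 gene identifiers counted in the series. All 49 were found, with TMEM55B listed under its newer symbol PIP4P1, and all 49 passed the filter of at least 10 counts summed over the samples, which left 26156 genes. RNA-seq was performed in LNCaP, an established androgen-responsive prostate cancer cell line. A TALEN, an engineered nuclease, had been directed at the CTG start codon of Bag-1L, the longest protein made from the BAG1 gene, to give a Bag-1L knockout (KO) line, which was set against a control line (Ctr) that had received the vector. Both lines were grown in full medium (FM), or were kept for 72 h without hormone and then given ethanol (EtOH), the vehicle, or 10 nM dihydrotestosterone (DHT), the potent natural androgen, for 16 h. There were 2 biological replicates in each of the 6 groups. The start codons of the shorter Bag-1 proteins were left in place, and lines were isolated as single clones after transfection, so that a difference between the lines and a difference between clones cannot be told apart.

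Autophagy delivers parts of the cell to the lysosome for breakdown. A kinase complex around ULK1 starts the process, a lipid kinase complex around BECN1 marks the membrane, WIPI, ATG2 and ATG9 proteins recruit and feed it, and linked conjugation reactions fix proteins of the ATG8 family (LC3 and GABARAP) to it, where cargo receptors such as SQSTM1 dock. The closed autophagosome fuses with the lysosome, whose hydrolases digest the cargo, and the transcription factors TFEB, TFE3, MITF and FOXO3 are known to drive genes of the pathway. In prostate cells the pathway is known to respond to androgen and to nutrients.

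TFEB and its relatives bind the letters CACGTG, and a longer form with GT before and AC after it, the CLEAR element, is known from promoters of lysosomal genes. Promoter windows, 250 bases before to 50 after a start site in RefSeq (GRCh38.p14), were found for 41 of the 49 genes and searched on both strands. CACGTG was present in 7 of the 41 (ATG14, ATG3, CTSA, CTSD, LAMP1, MCOLN1 and NEU1), against 8.77% of all 27305 genes with a window. The CLEAR element, which contains CACGTG, was present in 1 of the 41, MCOLN1, against 0.421% of all genes. The shorter TCACGTGA was present in 4 of the 41 (ATG3, CTSA, LAMP1 and MCOLN1), against 1.18% of all genes. A match is a run of letters and not a shown binding site. The 250 bases upstream of the start site are printed for 3 members that carry the word and are lysosomal, for ATG3, which carries it and fell with DHT, and for WIPI1 and OPTN, whose transcripts varied most over the groups among members above 100 normalized counts and whose windows hold no CACGTG. Capitals mark CACGTG. The windows are chr19:7522374-7522623 on the plus strand for MCOLN1, chr13:113296989-113297238 on the plus strand for LAMP1, chr6:31862822-31863071 on the minus strand for NEU1, chr3:112561963-112562212 on the minus strand for ATG3, chr17:68457497-68457746 on the minus strand for WIPI1 and chr10:13099913-13100162 on the plus strand for OPTN.
MCOLN1: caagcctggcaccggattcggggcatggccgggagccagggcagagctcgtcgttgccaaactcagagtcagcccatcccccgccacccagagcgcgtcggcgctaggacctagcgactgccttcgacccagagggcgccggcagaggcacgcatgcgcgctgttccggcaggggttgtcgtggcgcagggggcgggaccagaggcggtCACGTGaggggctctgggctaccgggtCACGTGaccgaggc
LAMP1: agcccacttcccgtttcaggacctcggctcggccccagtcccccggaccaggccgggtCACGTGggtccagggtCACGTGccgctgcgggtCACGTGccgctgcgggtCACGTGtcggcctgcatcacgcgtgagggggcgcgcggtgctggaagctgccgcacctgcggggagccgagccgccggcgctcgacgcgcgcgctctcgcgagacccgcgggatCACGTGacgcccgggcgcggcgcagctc
NEU1: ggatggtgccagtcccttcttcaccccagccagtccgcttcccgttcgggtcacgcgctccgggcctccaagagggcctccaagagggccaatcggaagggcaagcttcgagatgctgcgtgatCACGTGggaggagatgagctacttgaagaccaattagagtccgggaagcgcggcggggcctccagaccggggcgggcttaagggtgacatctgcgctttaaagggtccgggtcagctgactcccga
ATG3: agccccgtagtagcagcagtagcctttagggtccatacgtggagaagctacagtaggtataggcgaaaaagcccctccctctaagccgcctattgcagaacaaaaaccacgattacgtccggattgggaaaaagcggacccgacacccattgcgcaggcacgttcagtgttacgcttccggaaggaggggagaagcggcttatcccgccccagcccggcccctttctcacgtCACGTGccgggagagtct
WIPI1: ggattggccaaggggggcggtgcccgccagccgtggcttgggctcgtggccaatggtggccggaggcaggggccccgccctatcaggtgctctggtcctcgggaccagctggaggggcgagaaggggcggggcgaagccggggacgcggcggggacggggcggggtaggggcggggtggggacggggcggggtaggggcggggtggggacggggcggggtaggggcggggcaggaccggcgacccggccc
OPTN: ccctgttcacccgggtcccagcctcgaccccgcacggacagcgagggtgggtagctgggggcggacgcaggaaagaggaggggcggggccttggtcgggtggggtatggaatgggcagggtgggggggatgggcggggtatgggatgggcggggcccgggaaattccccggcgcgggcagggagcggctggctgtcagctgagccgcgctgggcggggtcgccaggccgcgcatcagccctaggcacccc
The palindromic androgen response element, AGAACA and TGTTCT with 3 bases of any kind between them, was in none of the 41 members' windows and in the window of 1 gene in all. Its left arm AGAACA was found in 1 member, ATG3, against 17.5% of all genes. The FOXO word GTAAACA was found in 1 member, CTSL, against 4.19% of all genes.

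The libraries held between 20826843 and 30354666 gene counts. Replicates lay farthest apart in control EtOH, where the median absolute log2 difference over 11374 genes with a mean of at least 100 normalized counts was 0.238, and over 48 members 0.192. In the other groups this distance over all genes was between 0.076 and 0.172. BAG1 transcript was lower in KO by 0.94 in EtOH and 1.14 in DHT on the log2 scale, and by 0.43 in FM with adjusted p = 0.0682; it does not check the deleted start codon itself. FKBP5, a direct androgen receptor target, was 4.02 higher with DHT in control and 4.0 in KO on the log2 scale. Its level was lower in KO than in control by 0.58 in EtOH, 0.59 in DHT and 0.56 in FM. KLK3, also androgen-responsive, rose with DHT by 0.86 in control and 1.24 in KO. It was higher in KO by 0.69 in DHT and 1.07 in FM, and by 0.31 in EtOH with adjusted p = 0.139. Summed luminal prostate markers were between 67112.4 and 143094 normalized counts per library. Basal markers summed to between 2.8 and 32.9 and leukocyte markers to between 0.8 and 7.1. Fibroblast markers summed to between 378.7 and 1017.7, nearly all from COL1A1, while COL1A2 and DCN were at most 9.0. The endothelial marker VWF had between 127.0 and 240.7. In these bulk samples, fewer cells of a kind and less RNA per cell cannot be told apart.

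Transcripts of the pathway were abundant. The median member stood at 196.8 normalized counts per kilobase of exon, and the median of 15920 protein-coding genes at 74.7. By this level per length the highest members were GABARAPL2, an ATG8 protein, at 828.1, CTSD, the aspartic protease cathepsin D, at 772.1, and FOXO3, a forkhead factor, at 675.9. The lowest were FOXO1 at 19.0, MITF at 17.6 and MAP1LC3A at 10.1 per kilobase. MAP1LC3A, an LC3 form, had between 3.3 and 22.9 normalized counts per library, where the floor of 3 counts corresponds to between 2.42 and 3.39, and no change is read from it.

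**Figure D1:**
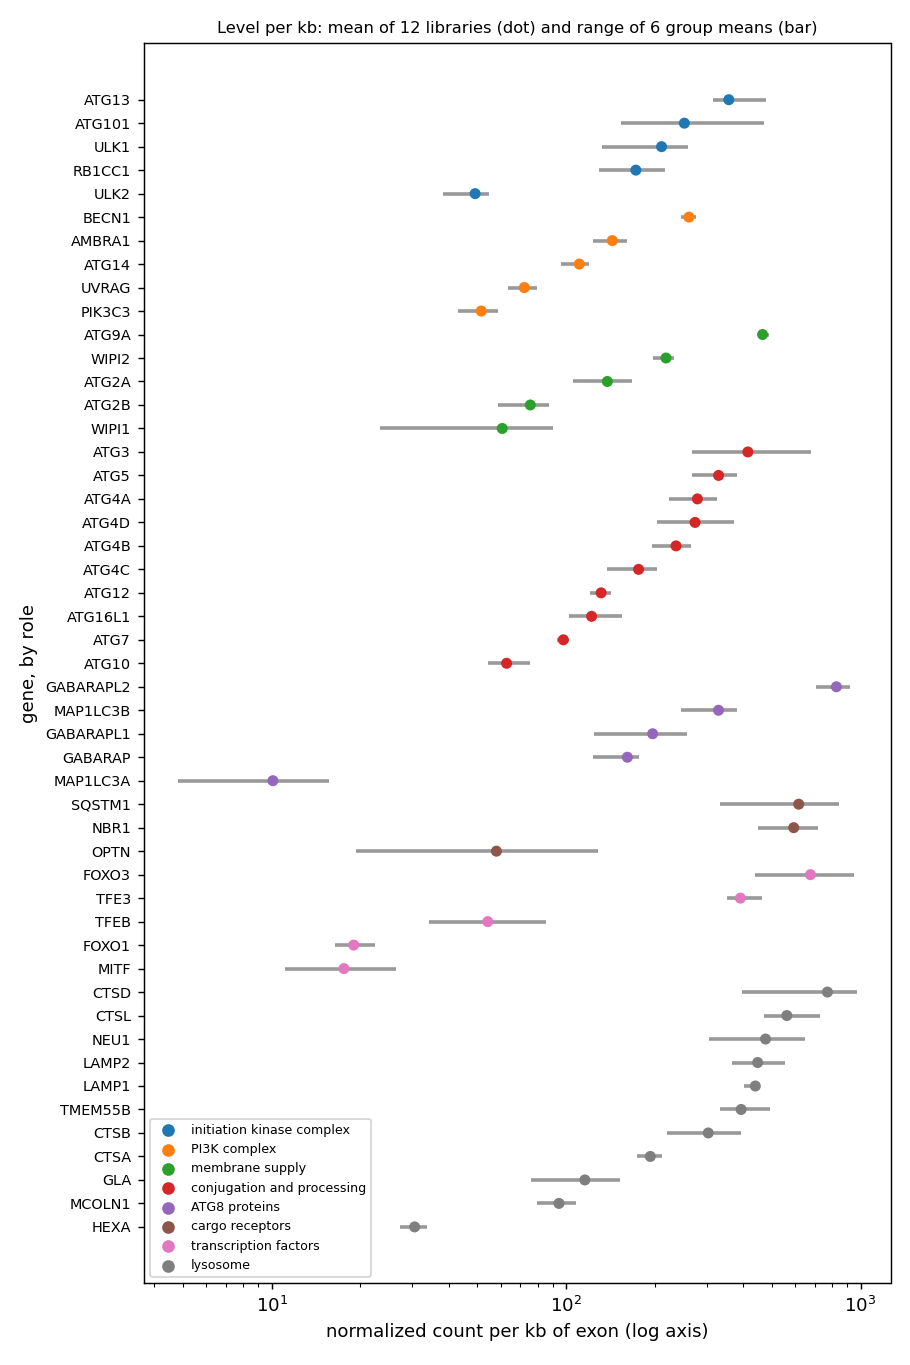
Mean normalized count per kilobase of exon for each of the 49 genes (dots on a horizontal log axis), with grey bars for the range of the 6 group means, grouped and coloured by role. The median member is at 196.8, with GABARAPL2 highest at 828.1 and MAP1LC3A lowest at 10.1.

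Much of the core varied little, at shares not far from those of genes of like level. Over the 6 group means, the highest exceeded the lowest by less than 1.5-fold for 52.1% of 48 members and 44.5% of 11374 genes of like minimum level, and by at least 2-fold for 25.0% of members and 22% of genes. ATG9A, the membrane protein that seeds the autophagosome, had a ratio of 1.08. The ratio was 1.10 for ATG7, the activating enzyme of both conjugation reactions, 1.12 for BECN1, the scaffold of the lipid kinase complex, and 1.13 for LAMP1, a major lysosomal membrane protein. At the other end stood the cargo receptor OPTN with a ratio of 6.64, the lipid-binding WIPI1 with 3.86 and ATG101, a subunit of the ULK1 complex, with 3.04. In the 9 comparisons that follow, a gene was called where DESeq2 gave it an adjusted p of 0.05 or less together with a change of 1.5-fold or more. Of the members, 17 (34.7%) were called in at least 1 comparison and 32 in none, where 34.8% of all genes tested, and 40.2% of those with a mean of at least 100 normalized counts, were called at least once. An adjusted p under 0.05 was reached at least once by 65.3% of the members, 54.7% of all genes and 72.6% of genes of that level. For the other 17 members no comparison gave one, and these held BECN1, ATG14, UVRAG and AMBRA1 of the lipid kinase complex, ATG5, ATG7, ATG10 and ATG12 of the conjugation reactions, and the lysosomal LAMP1, CTSA and HEXA.

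**Figure D2:**
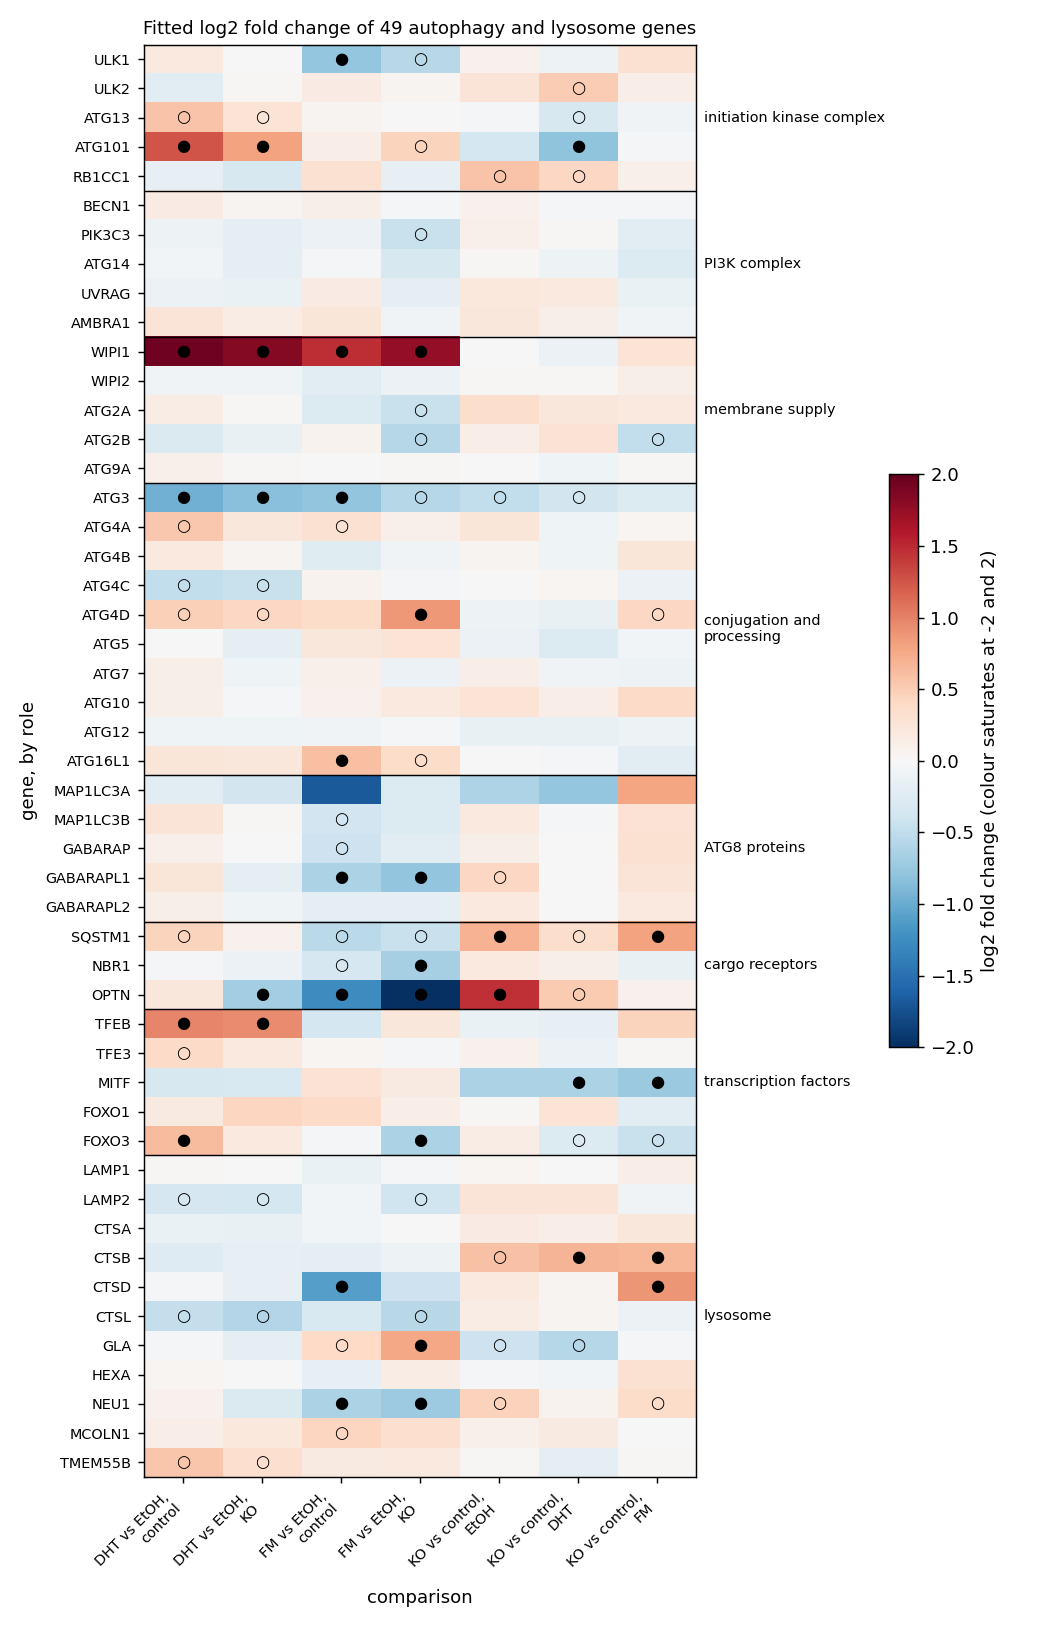
Log2 fold change of each of the 49 genes (rows, by role) in 7 comparisons (columns), with filled circles for genes called and open circles for those past the adjusted p alone, in colours that saturate at −2 and 2. Columns that use the same EtOH group share its libraries, and 32 of the 49 rows carry no filled circle.

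The effect of androgen was addressed first, by comparing DHT with EtOH within each line. In control, 5 of 49 members were called, 4 higher and 1 lower, where 11.4% of all genes tested were called (6.04% higher and 5.37% lower). In KO, 5 of 49 were called, 3 higher and 2 lower, against 7.68% of all genes tested (4.43% higher and 3.24% lower). Without the minimum of 1.5-fold, 14 members passed in control and 11 in KO, with 19.9% and 13.6% of all genes. The median log2 change of the members was 0.10 in control and −0.02 in KO, and of all genes −0.02 and −0.01. As shares of the members these were 10.2% called in each line and 28.6% and 22.4% past the adjusted p alone. The members were thus near the share of all genes with the minimum fold and above it without, at small changes. No share for genes of like level was taken in these comparisons. Over all 9 comparisons, 65.3% of members passed the adjusted p at least once, against 72.6% of genes with a mean of at least 100 normalized counts. WIPI1, ATG101 and TFEB rose and ATG3 fell in both lines, FOXO3 was called higher in control, and OPTN was called lower in KO.

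Of the ULK1 complex, ATG101 was called higher in both lines, and ATG13 passed the adjusted p alone. ATG101 (ENSG00000123395, GRCh37 chr12:52463030-52471279) binds ATG13 and stabilises it. In control EtOH it had 508.2 and 745.0 normalized counts and in control DHT 1329.6 and 1667.4. In KO EtOH it had 514.3 and 470.5 and in KO DHT 818.9 and 897.4. In full medium it had 717.8 and 658.5 in control and 677.1 and 666.4 in KO. Both DHT libraries lay above both EtOH libraries in each line, and the control DHT libraries above all others. The log2 change with DHT was 1.26 (SE 0.17, adjusted p = 1.21e-11, DESeq2) in control and 0.80 (SE 0.18, adjusted p = 9.94e-05) in KO. Of its exon bases, 19.2% are also covered by a gene on the opposite strand, which had 6 counts in all libraries together. ATG13, the scaffold it binds, had a mean of 2236.9 in control EtOH and 3332.2 in control DHT, a log2 change of 0.57 that passed the adjusted p (8.2e-09) but not the minimum of 1.5-fold, and its log2 change in KO was 0.27 (adjusted p = 0.0246). ULK1, ULK2 and RB1CC1 did not pass in either line.

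None of the 5 members of the lipid kinase complex passed the adjusted p with DHT in either line, and their log2 changes ran from −0.19 to 0.26. Among the membrane suppliers the change lay in WIPI1 (ENSG00000070540, chr17:66417089-66453654), a beta-propeller protein that binds the lipid made by that complex. WIPI1 had 92.3 and 67.6 normalized counts in control EtOH and 365.5 and 250.2 in control DHT. In KO it had 85.9 and 73.4 in EtOH and 305.8 and 263.0 in DHT. In full medium it stood at 224.2 and 218.9 in control and at 273.3 and 260.9 in KO. The EtOH libraries of both lines were low and every DHT and full-medium library was high, without overlap. With DHT it rose by 1.94 (SE 0.23, adjusted p = 2.76e-15) in control and 1.84 (SE 0.23, adjusted p = 1.69e-13) in KO on the log2 scale. The gene ARSG runs through it on the opposite strand and covers part of the 28.1% of its exon bases that are shared. ARSG had between 143.2 and 457.5 normalized counts, with log2 changes of 0.74 and 1.0 with DHT, and its part in the WIPI1 counts was not tested. WIPI2, ATG2A, ATG2B and ATG9A did not pass in either line.

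In the conjugation reactions ATG3 was called lower in both lines. ATG3 (ENSG00000144848, chr3:112251357-112280893) is the enzyme that joins ATG8 proteins to lipid. It had 3827.4 and 4439.4 normalized counts in control EtOH and 1917.2 and 2331.1 in control DHT. In KO it had 2995.4 and 2862.8 in EtOH and 1655.5 and 1627.5 in DHT, and in full medium 2427.3 and 2353.9 in control and 1871.0 and 2072.6 in KO. The EtOH libraries were the highest in each line. ATG3 fell by 0.96 (SE 0.12, adjusted p = 4.58e-13) in control and by 0.84 (SE 0.12, adjusted p = 9.99e-10) in KO on the log2 scale. Among the ATG4 proteases, which trim ATG8 proteins and release them from lipid, the directions were mixed: ATG4D had log2 changes of 0.48 and 0.42, ATG4C of −0.49 and −0.44, both past the adjusted p in each line, and ATG4A had 0.54 in control, all below 1.5-fold. Without MAP1LC3A, the ATG8 proteins had log2 changes between −0.18 and 0.26 with DHT, and none passed the adjusted p.

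Among the transcription factors TFEB rose in both lines. TFEB (ENSG00000112561, chr6:41651716-41703997) is the main known activator of lysosomal genes. It had 246.5 and 338.2 normalized counts in control EtOH and 574.4 and 572.9 in control DHT. KO had 250.9 and 279.5 in EtOH and 508.3 and 519.9 in DHT, and full medium gave 240.7 and 218.9 in control and 279.8 and 345.2 in KO. The DHT libraries of both lines were higher than every other library. The log2 change was 0.97 (SE 0.17, adjusted p = 5.04e-07) in control and 0.95 (SE 0.18, adjusted p = 1.73e-06) in KO. Its relative TFE3 had 0.39 (adjusted p = 0.00665) in control, below 1.5-fold. Of the 7 members with CACGTG in the promoter window, 1 was called with DHT in control and the same 1 in KO, ATG3, and it was lower, beside 11.4% and 7.68% of all genes called. The log2 changes of the other 6 were between −0.13 and 0.14 in control and between −0.29 and 0.21 in KO.

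FOXO3 (ENSG00000118689, chr6:108881038-109005977) had 5008.3 and 4365.8 normalized counts in control EtOH and 7629.4 and 6926.8 in control DHT. In KO it had 5141.9 and 5259.7 in EtOH and 6172.8 and 5783.9 in DHT. Full medium gave 4542.1 and 4658.2 in control, against 3438.0 and 3279.3 in KO. The control DHT libraries were the highest of all and the KO full-medium libraries the lowest. With DHT it rose by 0.63 (SE 0.10, adjusted p = 3.49e-08) in control, and this fell under 1.5-fold without control EtOH replicate 2 (0.54) or control DHT replicate 1 (0.56). Of its 50-base words, 36.0% also occur in other loci such as FOXO3B, so its counts are uncertain.

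At the lysosome no member was called with DHT in either line. TMEM55B, a lipid phosphatase of the lysosomal membrane, had log2 changes of 0.56 in control (adjusted p = 8.45e-06) and 0.34 in KO (adjusted p = 0.0221). CTSL, the cysteine protease cathepsin L, had −0.48 and −0.58 (adjusted p = 0.0049 and 0.000561), and LAMP2, a lysosomal membrane protein, had −0.34 and −0.35. All of these were below 1.5-fold. LAMP1 was at 0.03 and 0.00.

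**Figure D3:**
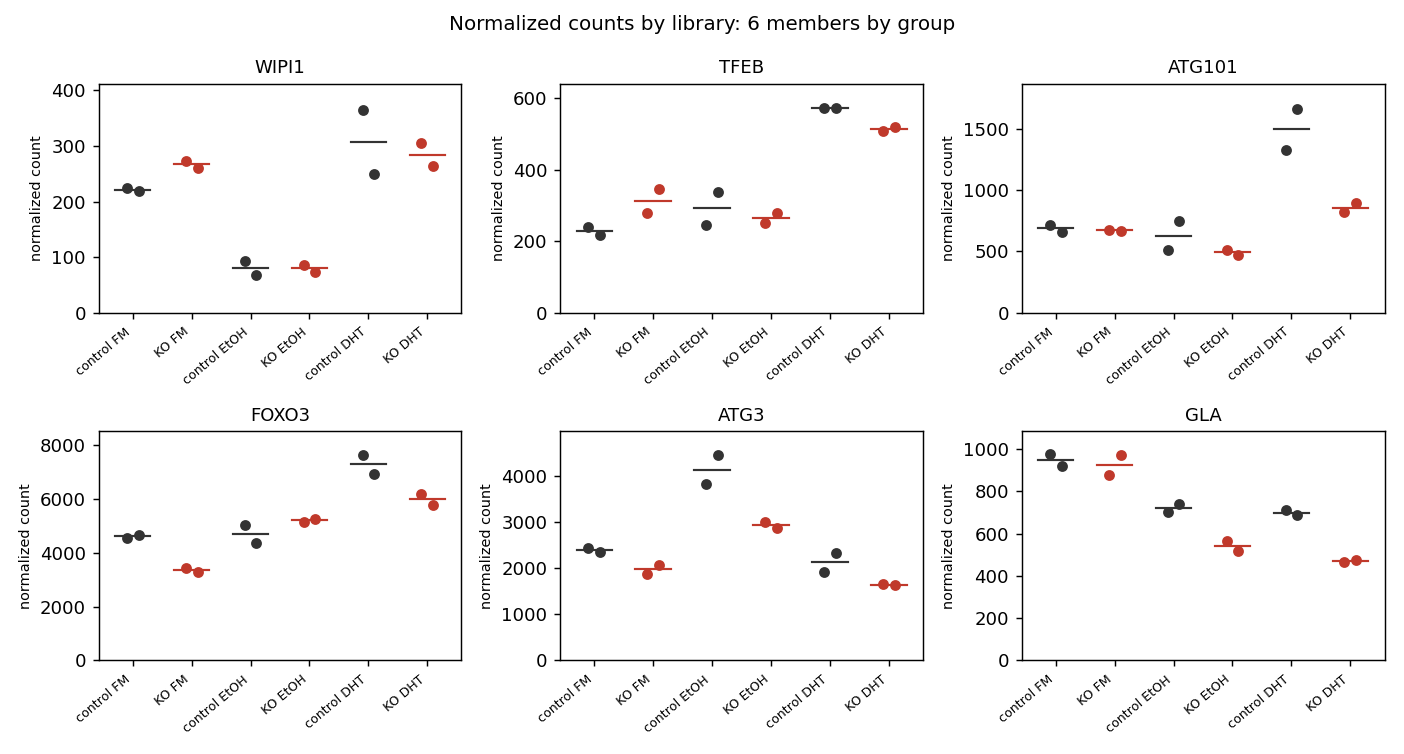
Normalized count in each library (points) with the group mean (line) for WIPI1, TFEB, ATG101, FOXO3, ATG3 and GLA, in control (black) and KO (red), each panel from 0. DHT libraries stand above EtOH libraries for WIPI1, TFEB and ATG101 in both lines and below them for ATG3.

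Whether the response to DHT differed between the lines was tested by the interaction of line and treatment. No member of 48 with an adjusted p was called by DESeq2, where 0.408% of all genes tested were, and edgeR also called 0. At an unadjusted p under 0.05, DESeq2 counted 6 of 49 members (FOXO3, OPTN, GABARAPL1, SQSTM1, ATG13 and NEU1) and 2.62% of all genes, and edgeR counted 5 members and 5.08% of all genes. Each of the 6 had a lower response in KO. Among all members with a mean of at least 100 normalized counts, the largest difference was that of OPTN, −0.93 (SE 0.26, 95% confidence interval −1.44 to −0.42, adjusted p = 0.0664). Next were ATG101, which is not among the 6, with −0.46 (−0.95 to 0.03), and FOXO3 with −0.43 (−0.72 to −0.14). Over 48 members the median difference was −0.11, with 39 below 0 and 9 above, while over all genes the median was 0. The split depended on the scaling. With TMM size factors it was 32 below and 17 above, and the median of all genes moved to 0.03. It also moved with single libraries, to 33 below and 15 above without control EtOH replicate 1 and 32 below and 16 above without control EtOH replicate 2. Without control EtOH replicate 1 the interaction was called for OPTN (−1.06, adjusted p = 0.0258), and without control EtOH replicate 2 for ATG101 (−0.76, adjusted p = 0.0255). Over all 18 alternatives the adjusted p ran from 0.0258 to 1 for OPTN and from 0.0255 to 1 for ATG101.

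**Figure D4:**
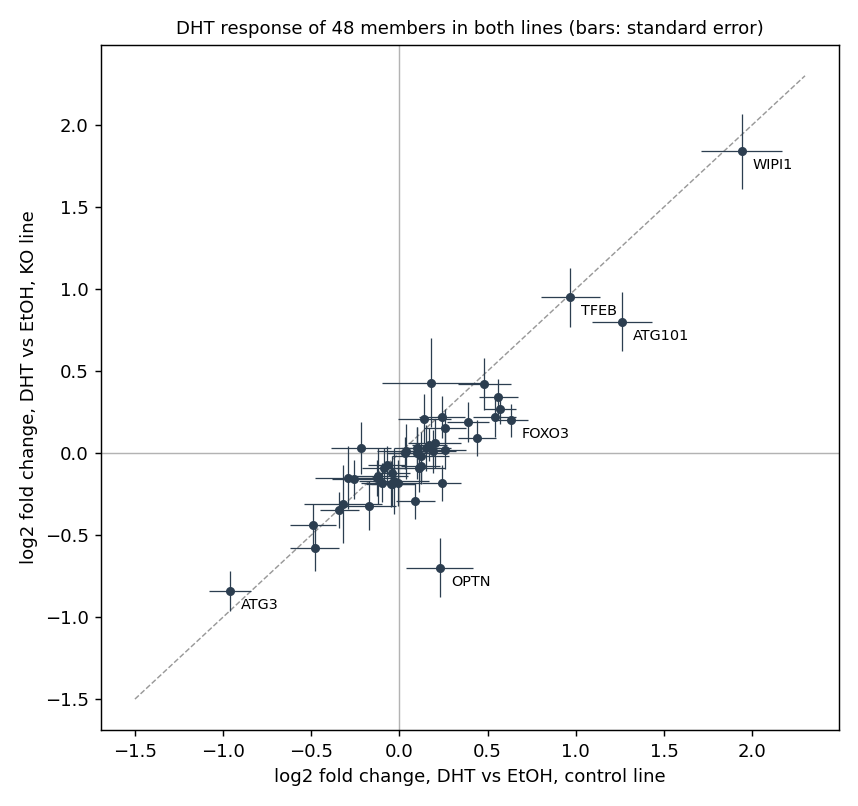
Log2 fold change with DHT in control (horizontal) and in KO (vertical) for 48 members, with standard errors as bars and the line of equal change. WIPI1, ATG101, TFEB and ATG3 lie far from 0 on both axes, and OPTN is below 0 in KO and above 0 in control.

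The lines were then compared within each culture condition, which asks what goes with the loss of Bag-1L. In EtOH, 2 of 49 members were called, OPTN and SQSTM1, both higher in KO, where 5.11% of all genes tested were called (2.8% higher and 2.31% lower). In DHT, 3 of 49 were called, CTSB higher and ATG101 and MITF lower, against 7.98% (4.66% higher and 3.32% lower). In FM, 4 of 48 were called, SQSTM1, CTSB and CTSD higher and MITF lower, against 8.01% (5.41% higher and 2.6% lower). At the adjusted p alone 8, 11 and 8 members passed, with 9.81%, 16.4% and 18.5% of all genes. As shares of the members, 4.08%, 6.12% and 8.33% were called and 16.3%, 22.4% and 16.7% passed the adjusted p alone, so the called shares were near the background in each condition. In EtOH 35 members were above 0 and 14 below, with a median log2 difference of 0.10 against −0.01 over all genes, of which 47.8% were above 0. Without control EtOH replicate 1 the split was 29 above and 19 below. The medians in DHT and FM were −0.01 and 0.02.

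In EtOH the members called between the lines were the cargo receptors OPTN and SQSTM1. OPTN (optineurin, ENSG00000123240, chr10:13141449-13180308) links ubiquitinated cargo such as damaged mitochondria to ATG8 proteins. In EtOH it had 258.8 and 218.8 normalized counts in control and 711.0 and 607.0 in KO. In DHT it had 248.4 and 311.7 in control and 418.7 and 390.4 in KO. In FM it had 90.6 and 108.0 in control and 93.3 and 119.5 in KO. The KO libraries lay above the control libraries in EtOH and DHT, and in FM, where the transcript was scarcest, the lines overlapped. KO exceeded control by 1.46 (SE 0.18, adjusted p = 3.64e-13) in EtOH on the log2 scale, by 0.53 (SE 0.18, adjusted p = 0.028) in DHT, which is below 1.5-fold, and by 0.09 (SE 0.22, 95% confidence interval −0.34 to 0.52) in FM. Within KO, OPTN fell by 0.70 with DHT (SE 0.18, adjusted p = 0.00123), a call lost without KO EtOH replicate 1 (−0.58) or KO DHT replicate 2 (−0.65). In control its change with DHT was 0.23 (SE 0.19, adjusted p = 0.478). The EtOH difference was called in each of the 18 alternatives, with log2 values from 1.34 to 1.59.

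SQSTM1 (p62, ENSG00000161011, chr5:179233398-179265078) is the receptor that both gathers ubiquitinated cargo and is itself broken down by autophagy. With EtOH control libraries had 3535.2 and 3800.8 normalized counts and KO libraries 6081.2 and 5849.8. In FM it had 2678.0 and 2355.8 in control and 4208.4 and 4572.6 in KO. In DHT it had 5098.3 and 4880.2 in control and 5873.4 and 6836.7 in KO. Every KO library was above the control libraries of its condition. The log2 difference was 0.70 (SE 0.11, adjusted p = 7.97e-08) in EtOH, 0.80 (SE 0.12, adjusted p = 3.87e-10) in FM and 0.35 (SE 0.11, adjusted p = 0.018) in DHT. In control it had risen with DHT by 0.44 (adjusted p = 0.00105), short of 1.5-fold. NBR1, a related receptor, had differences of 0.19, 0.11 and −0.15 in EtOH, DHT and FM, none past the adjusted p. Of the exon bases of SQSTM1, 22.4% are also covered by genes on the opposite strand. Among these was MRNIP, with between 417.4 and 767.5 normalized counts, and their part in the SQSTM1 counts was not tested.

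**Figure D5:**
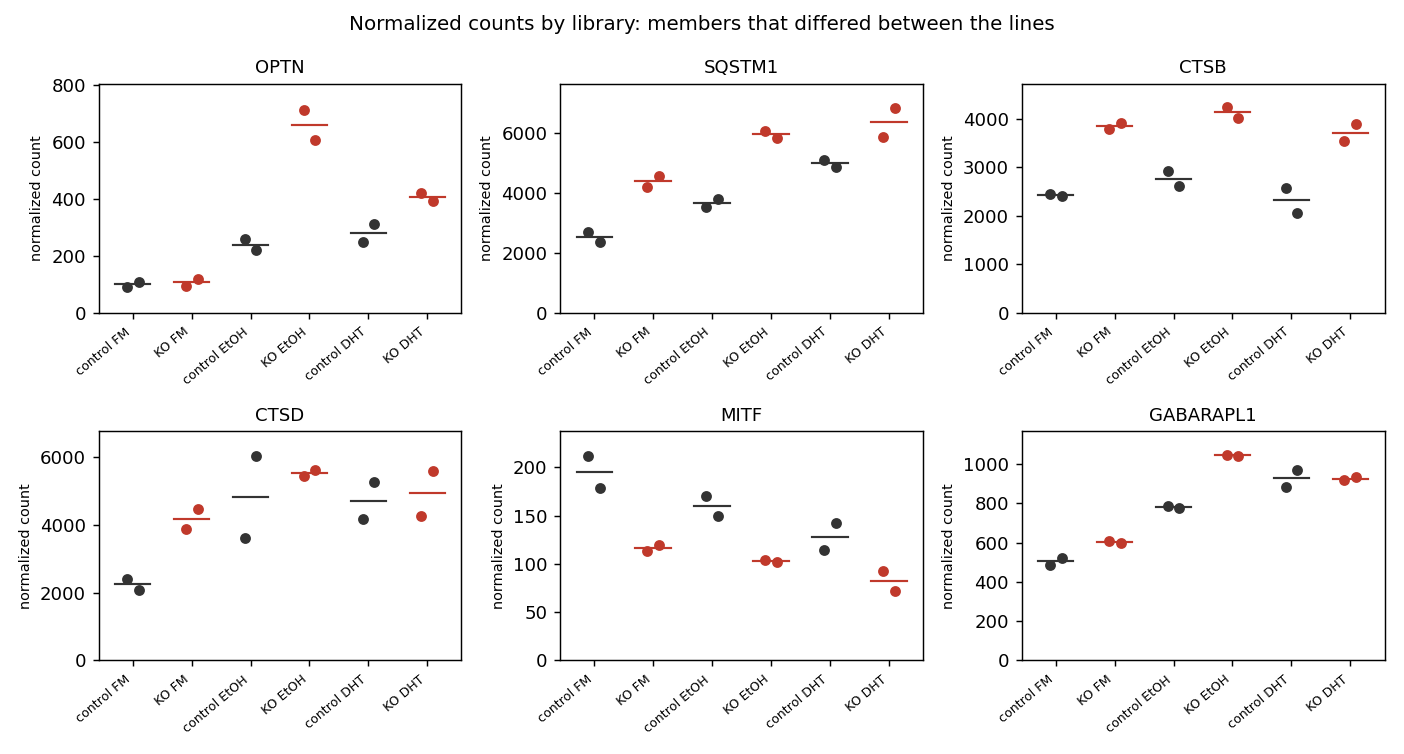
Normalized count in each library (points) with the group mean (line) for members that differed between control (black) and KO (red), each panel from 0. OPTN is highest in KO EtOH and low in both lines in FM, and SQSTM1 and CTSB are higher in KO in every condition.

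At the lysosome the members called between the lines were the proteases CTSB, in DHT and FM, and CTSD, in FM. CTSB, the cysteine protease cathepsin B, had 2919.5 and 2613.1 normalized counts in the control libraries with EtOH and 4251.2 and 4017.5 in those of KO. With DHT control had 2576.4 and 2052.7 against 3531.3 and 3888.5 in KO, and FM gave 2448.3 and 2416.1 in control against 3788.7 and 3904.0 in KO. The lines did not overlap in any condition. KO was higher by 0.58 in EtOH (SE 0.12, adjusted p = 1.11e-04, below 1.5-fold), 0.68 in DHT (SE 0.12, adjusted p = 1.8e-06) and 0.66 in FM (SE 0.12, adjusted p = 5.63e-06) on the log2 scale, and without control DHT replicate 2 the DHT value was 0.53. CTSB lies on chromosome 8, and the 15 other genes within 5 Mb of it with at least 100 normalized counts had median log2 differences of 0.35 in EtOH, 0.40 in DHT and 0.34 in FM, with 13, 13 and 14 of them above 0. RB1CC1, the ULK1 complex scaffold also known as FIP200, lies on the same chromosome and had 0.57 in EtOH (adjusted p = 0.00341) and 0.42 in DHT (adjusted p = 0.0385), below 1.5-fold. The 17 genes around RB1CC1 had medians of 0.25, 0.22 and 0.18. Around OPTN (26 genes) the medians were −0.07, −0.13 and −0.14, and around SQSTM1 (59 genes) −0.08, −0.04 and 0.08. The part of such neighbourhood differences in the values of CTSB and RB1CC1 was not tested.

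CTSD (cathepsin D, ENSG00000117984, chr11:1773982-1785803) differed in FM. It had 2411.9 and 2082.5 normalized counts in control FM and 3862.3 and 4461.9 in KO FM. EtOH gave 3613.3 and 6032.9 in control against 5439.2 and 5608.9 in KO, and DHT gave 4162.5 and 5261.4 in control and 4270.4 and 5574.8 in KO. The lines were apart in FM and overlapped in EtOH and DHT, where the control EtOH replicates were far from each other. KO was higher by 0.89 (SE 0.20, adjusted p = 2.91e-04) in FM on the log2 scale. The 64 genes around it had a median of 0.20 in FM. Of its exon bases, 27.3% are also annotated to other genes of the same strand, so that reads may be missing from its count. On the opposite strand, 24.0% of its exon bases are shared. Of the hydrolases, GLA (alpha-galactosidase) was lower in KO by 0.42 in EtOH (adjusted p = 0.0123) and 0.57 in DHT (adjusted p = 1.27e-04), and NEU1 (sialidase) was higher by 0.46 in EtOH (adjusted p = 0.00133) and 0.36 in FM (adjusted p = 0.0148), all below 1.5-fold.

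Of the regulators MITF was lower in KO. MITF (ENSG00000187098, chr3:69788607-70017487), a TFEB relative best known from pigment cells, was scarce. With EtOH it had 170.3 and 149.2 normalized counts in control, against 104.0 and 101.6 in KO. In DHT it had 114.1 and 142.2 in control and 92.8 and 71.7 in KO, and in FM 212.0 and 179.0 in control and 112.9 and 119.5 in KO. Every KO library was below the control libraries of its condition. The log2 difference was −0.64 (SE 0.23, adjusted p = 0.0547) in EtOH, −0.63 (SE 0.24, adjusted p = 0.0454) in DHT and −0.75 (SE 0.22, adjusted p = 0.00888) in FM. The 18 genes within 5 Mb of it had median log2 differences of −0.07, −0.09 and −0.23 in EtOH, DHT and FM, with 8, 7 and 2 of them above 0, and their part in its values was not tested. The DHT call was kept in 6 of 18 alternatives and the FM call in 14 of 18, where each FM library left out in turn ended it, at −0.63 and −0.87 without control replicate 1 and 2 and −0.71 and −0.79 without KO replicate 1 and 2. Left out in turn, control DHT replicate 2 and KO DHT replicates 1 and 2 gave DHT differences of −0.46, −0.84 and −0.47. FOXO3 was lower in KO by 0.28 in DHT (adjusted p = 0.0423) and 0.45 in FM (adjusted p = 4.33e-04), below 1.5-fold.

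ATG101 was lower in KO with DHT, by 0.80 (SE 0.17, adjusted p = 6.65e-05) on the log2 scale, and its libraries did not overlap between the lines there. In EtOH (−0.35, adjusted p = 0.243) and FM (−0.03, adjusted p = 0.922) they did. ATG3 was lower in KO by 0.50 in EtOH (adjusted p = 0.00144) and 0.37 in DHT (adjusted p = 0.0234), below 1.5-fold. GABARAPL1, an ATG8 protein, was higher in KO by 0.42 in EtOH (adjusted p = 0.00503) and did not pass in DHT (adjusted p = 0.991). No member of the lipid kinase complex passed the adjusted p between the lines in any condition.

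The last contrast, full medium against EtOH, compares cells in full medium to hormone-starved cells given the vehicle. Androgens of the serum, other serum factors, the medium and the vehicle cannot be told apart in it. By the paper's methods, hormone starvation used phenol red-free medium with charcoal-stripped serum and glutamine, so the contrast is not one of nutrient starvation. It uses the same EtOH libraries as the DHT and KO contrasts. In control, 8 of 49 members were called, 2 higher and 6 lower in FM, against 21.3% of all genes tested (9.81% higher and 11.5% lower). In KO, 8 of 49 were called, 3 higher and 5 lower, against 19.3% (9.61% higher and 9.68% lower). At the adjusted p alone, 15 and 18 members passed, with 34.9% and 31.7% of all genes. The called share of members was 16.3% in each line, under that of all genes, and the shares past the adjusted p alone were 30.6% and 36.7%.

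The 3 cargo receptors and some of the ATG8 proteins were lower in full medium. OPTN had a log2 change of −1.26 (SE 0.21, adjusted p = 1.52e-08) in control and −2.64 (SE 0.20, adjusted p = 2.84e-38) in KO. NBR1 was called lower in KO (−0.67) and had −0.34 in control, and SQSTM1 had −0.54 and −0.44, so that all 3 receptors passed the adjusted p in both lines. GABARAPL1 was called in both, at −0.63 and −0.79. MAP1LC3B (LC3B) and GABARAP had −0.38 and −0.42 in control, past the adjusted p and below 1.5-fold. ULK1, the initiating kinase, was called lower in control at −0.78 and had −0.55 in KO, past the adjusted p only. Without control FM replicate 1 the GABARAPL1 value in control was −0.57, under 1.5-fold.

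WIPI1 was higher in FM by 1.47 (SE 0.23, adjusted p = 6.52e-09) in control and 1.75 (SE 0.23, adjusted p = 1.99e-12) in KO, the same direction as with DHT. ATG3 was called lower in control (−0.79, adjusted p = 3.07e-09) and had −0.57 in KO. ATG16L1, which places the conjugation machinery on the membrane, was called higher in control at 0.60, in 15 of 18 alternatives too, and was at 0.57, under 1.5-fold, without control FM replicate 2, without control EtOH replicate 2 and with at least 10 counts in every sample. ATG4D, a protease of ATG8 proteins, was called higher in KO. It had 422.7 and 501.6 normalized counts in KO EtOH and 802.1 and 885.6 in KO FM, a log2 change of 0.87 (SE 0.15, adjusted p = 2.58e-07). In control it had 435.8 and 555.1 in EtOH and 657.1 and 614.7 in FM (0.36, adjusted p = 0.0566), and with DHT 677.4 and 700.0 in control and 576.0 and 666.3 in KO. The FM libraries lay above the EtOH libraries in both lines.

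At the lysosome CTSD was lower in FM in control by 1.10 (SE 0.20, adjusted p = 5.34e-07), with values across the alternatives from −1.42 to −0.68. NEU1 was called lower in control (−0.63) and KO (−0.73), and without control EtOH replicate 2 the control value was −0.54, under 1.5-fold. GLA was called higher in KO (0.78) and had 0.40 in control. FOXO3 was called lower in KO (−0.63, adjusted p = 2.95e-08) and had −0.03 in control. TFEB, which rose with DHT in both lines, was not called between FM and EtOH in either.

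The change from EtOH to full medium differed between the lines for OPTN and FOXO3, the 2 of 48 members called in the interaction, both lower in KO, where 1.39% of all genes tested were called (0.748% higher and 0.64% lower). For OPTN the difference was −1.37 (SE 0.29, 95% confidence interval −1.94 to −0.80, adjusted p = 5.28e-04). For FOXO3 it was −0.60 (SE 0.15, 95% confidence interval −0.89 to −0.31, adjusted p = 0.00741). OPTN thus stood apart between the lines in EtOH and not detectably in FM, and that difference between conditions is the tested one. It was called in 15 of 18 alternatives and missed without control FM replicate 2 (−1.24), KO FM replicate 1 (−1.20) or KO EtOH replicate 1 (−1.25). The FOXO3 difference was called in 10 of 18 alternatives. It missed with edgeR (−0.59), without control FM replicate 1 or 2 (−0.63 and −0.59), KO FM replicate 1 or 2 (−0.64 and −0.57), control EtOH replicate 2 (−0.51), and KO EtOH replicate 1 or 2 (−0.62 and −0.59). CTSD, at 0.69 (95% confidence interval 0.14 to 1.24, adjusted p = 0.212), and ATG2B, at −0.64 (−1.17 to −0.11, adjusted p = 0.218), were next in size. ATG2B, a lipid transfer protein, had 1350.3 and 916.1 normalized counts in control EtOH and 1176.1 and 1197.4 in control FM. KO libraries gave 1148.4 and 1348.6 in EtOH and 901.0 and 779.3 in FM. With DHT it had 1036.8 and 816.0 in control and 1262.6 and 995.0 in KO. Its KO FM libraries were the lowest among those of FM and EtOH. Without control EtOH replicate 1 both were called, CTSD at 1.02 and ATG2B at −0.95.

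Further genes of the pathway were described by 5 lists with 130 genes in all: other autophagy genes, the V-ATPase, which acidifies the lysosome, other lysosomal enzymes, other lysosomal membrane and sorting proteins, and mTORC1, the nutrient-sensing kinase complex, with its lysosomal regulators. With DHT, 5 of 125 tested were called higher and 6 lower in control, where 6.04% of all genes were higher and 5.37% lower. In KO 3 of 125 were higher and 4 lower, where 4.43% and 3.24% of all genes were. Between the lines, 4 of 124 were called higher and 0 lower in KO in EtOH (all genes 2.8% and 2.31%), 6 and 0 of 124 in DHT (4.66% and 3.32%), and 7 and 1 of 123 in FM (5.41% and 2.6%). In FM against EtOH 9 were higher and 18 lower in control (9.81% and 11.5% of all genes), and 4 higher and 12 lower in KO (9.61% and 9.68%). None was called in either interaction by DESeq2. For DHT in control the median log2 change of the lists was 0.06, beside −0.02 over all genes.

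TP53INP1, a p53-induced autophagy protein, had 4058.6 and 3294.5 normalized counts in control EtOH, and 1510.3 and 1586.7 with DHT. KO libraries gave 6424.8 and 6738.2 without and 3151.3 and 2809.8 with DHT. It was lower with DHT by 1.25 in control (adjusted p = 4.55e-23) and 1.14 in KO (adjusted p = 6.2e-20), and higher in KO by 0.84 in EtOH (adjusted p = 2.28e-10) and 0.95 in DHT (adjusted p = 8.22e-13). Its relative TP53INP2 moved the other way with DHT, by 1.48 in control (adjusted p = 8.41e-24) and 0.77 in KO (adjusted p = 8.35e-07). MTOR, the kinase that restrains autophagy when nutrients are plentiful, had 2325.7 and 1615.4 normalized counts in control EtOH, against 4320.0 and 3100.8 with DHT, and rose by 0.91 in control (adjusted p = 1.86e-06) and 0.97 in KO (adjusted p = 4.34e-07). Among enzymes SGSH (heparan sulfatase) rose by 0.69 and 0.63, and MANBA (beta-mannosidase) fell by 1.05 and 0.61. In the V-ATPase ATP6V1H was higher in KO by 0.59 in EtOH (adjusted p = 1.66e-04) and 0.68 in FM (adjusted p = 5.7e-06). LAPTM4B, a lysosomal membrane protein, was higher in KO by 0.60, 0.74 and 0.69 in EtOH, DHT and FM, and lower in FM than EtOH by 1.23 in control and 1.14 in KO. No neighbourhood on the chromosome was examined for the list genes. Nor were their positions set beside the chromosome 8 neighbourhoods of CTSB and RB1CC1, where the medians were higher in KO. The part of regional differences in their KO values was thus not tested.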

How the data were processed

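RNA-seq counts per gene from 12 samples were used in the form deposited by the authors, that is raw read counts. Per the submitters' processing notes and the study's methods, reads of stranded TruSeq mRNA libraries passed through CASAVA 1.7, TopHat2 2.0.11 on GRCh37 and HTSeq 0.5.3p3, with replicates kept apart. The Ensembl release and the strand setting of counting are not given in the sources used here. Reads that fall on several overlapping genes are left out, which lowers the counts of such genes. Such ambiguous reads came to between 9.44% and 11.63% of the gene counts. Alignments that were not unique, which bear on duplicated genes, were tallied apart, at between 5104310 and 7481777 per library. Symbols and positions came from GENCODE 44 lifted to GRCh37. Rows that name no gene were left out of totals.

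All 12 samples entered 1 DESeq2 1.42.0 fit (R 4.3.3) with a coefficient per group, median-of-ratios size factors (between 0.88 and 1.24), Wald tests and unshrunken fold changes, Benjamini-Hochberg adjustment over all genes tested, and genes with at least 10 summed counts. Calls needed an adjusted p of 0.05 or less and a change of 1.5-fold or more. The script was tested on simulated counts. Normalized counts are counts divided by size factors. With 2 replicates per group, p-values rest on a spread shared over genes. Replicates differed by more than sampling noise (chi-square per degree of freedom between 3.19 and 36.46), and none was merged. Alternatives used edgeR 4.0.16, TMM, other count filters, only the groups compared, a replicate block and each replicate left out.

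Values in every library are given for each member called in a DHT or KO comparison or in an interaction, for the 3 largest calls in each FM comparison and, where fewer than 3 were called, for the 3 largest changes above a mean of 100 normalized counts. From the pathway lists, examples come from at most the 2 largest calls of each list per direction and comparison. The members and lists were chosen with earlier results of these data known. The neighbourhoods of members and the genes that overlap them were added after the results were seen.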

Additional observations from a re-analysis of the deposited data

Results flagged for a closer look

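The change from EtOH to full medium differed between the lines, by a test of the difference itself, for OPTN and FOXO3. For OPTN the difference of log2 changes, KO minus control, was −1.37, from −1.26 in control and −2.64 in KO. For FOXO3 it was −0.60, from −0.03 in control and −0.63 in KO. The FOXO3 difference was not called with edgeR (−0.59), and 36.0% of the 50-base words of FOXO3 also occur in other loci. Both interactions use the 4 EtOH libraries, of which the control replicates were the farthest apart. No group had enough samples for a test of single outlying libraries.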

How the results depend on the processing

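Alternatives were run for 43 pairs of a named member and a comparison, and none of these log2 values changed sign. Other printed values of single genes have no alternatives. The median of the members between the lines in DHT went from −0.01 to 0.02 with edgeR or TMM. Of 817 values of named members under single alternatives, 774 kept their side of the threshold, 37 lost a call and 6 gained one. At least 1 count of called members changed by over 1.5 times in 12 of 19 settings, 9 of them among the 12 that leave out a replicate, and the count of the FM interaction did so in 9. With no minimum fold change they were 14 and 11 for DHT in control and KO, 8, 11 and 8 for KO against control in EtOH, DHT and FM, and 15 and 18 for FM in control and KO. With at least 10 counts in every sample, 4 members were called between the lines in EtOH. With edgeR, 1 member, OPTN, was called in the FM interaction. With a replicate left out, the counts ran from 4 to 9 and 4 to 6 for DHT in control and KO, 0 to 1 for the DHT interaction, 2 to 6, 2 to 4 and 3 to 4 for KO in EtOH, DHT and FM, 6 to 10 and 8 to 10 for FM in control and KO, and 0 to 8 for the FM interaction. The extremes of 9, 6 and 8 came without control DHT replicate 2, control EtOH replicate 1 and control EtOH replicate 1. The cause of these shifts was not tested. A fit that leaves out a replicate assumes that the remaining library varies like the other groups. MITF in EtOH was called with edgeR (−0.64) and with 10 counts in every sample (−0.63).

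Replicate numbers did not pair the samples in the same way over all groups. Deviations of same-numbered samples correlated between −0.415 and 0.692 over 15 pairs of groups, with a mean of 0.033, and 6 were above 0.1. Some groups may thus share deviations by number. The block that was fitted is common to all groups, so pairing within single contrasts was not tested. With the replicate number as a block, 9 members were called for FM in KO and 2 between the lines in DHT, and MITF was the call lost there. With 2 replicates, differences under 1.5-fold were often past the adjusted p only, and MAP1LC3A lay too near the floor to compare.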

Other observations

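CTSO, a cysteine protease of the lysosome from the pathway lists, was scarce in every library. It had 26.6 and 19.9 normalized counts in control cells with EtOH, 9.1 and 13.1 with DHT, and 15.5 and 36.0 in FM. In KO it had 55.4 and 54.6 in EtOH, 68.6 and 50.8 in DHT and 70.9 and 59.2 in FM. Every KO library was above every control library, and the log2 difference was 1.24 in EtOH (adjusted p = 0.0358), 2.43 in DHT (adjusted p = 9.11e-06) and 1.33 in FM (adjusted p = 0.0125) by DESeq2. ARSA (arylsulfatase A) was higher in KO in FM by 0.96 (adjusted p = 2.8e-06), and HGSNAT, a transferase of heparan sulfate breakdown, in DHT by 0.74 (adjusted p = 0.00158). TSC2, a restraint on mTORC1, was higher in KO in FM by 0.63 (adjusted p = 1.72e-06), and RPTOR, a subunit of mTORC1, in DHT by 0.63 (adjusted p = 3.43e-04). The neighbourhoods of these genes on the chromosome were not examined, so the part of regional differences in their KO values was not tested.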
